A study of Mus musculus with 2 samples.

Results

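The genes described here are 9 of the 55536 annotated genes measured in the neonatal mouse adrenal gland: the alcohol dehydrogenases Adh1, Adh4, Adh5 and Adh7, the aldehyde dehydrogenases Aldh1a1, Aldh1a2, Aldh1a3 and Aldh1a7, and the retinol dehydrogenase Rdh10. They were taken by gene symbol. Adh1 was chosen on its high level in these same libraries, and the other 8 as relatives of it or as enzymes of the same pathway, so the levels below are a description and carry no test. Total RNA was sequenced from adrenal glands of 2 female mice aged 4 days of the B6CASTF1/J hybrid strain, which make up 1 group with 2 biological replicates and no treatment named in the labels. Each library was stranded, depleted of ribosomal RNA, made from 300 ng of RNA and spiked with ERCC control RNAs, per the labels. For replicate 2 the labels name the animal as Female 03 in one place and Female 04 in another, and both replicates carry the same donor record. With 2 animals, SDs measure only the spread between these samples.

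Retinol, the alcohol form of vitamin A, is oxidised to retinal by cytosolic alcohol dehydrogenases and by membrane-bound short-chain dehydrogenases such as Rdh10, a step that other enzymes reverse. Aldehyde dehydrogenases of the Aldh1a family then oxidise retinal to retinoic acid, which acts through the nuclear receptors of the RAR and RXR families and is broken down by Cyp26 enzymes. Adh1 also oxidises ethanol and is known for high expression in liver and for expression in the adrenal gland.

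Defining markers of the gland were present. All 7 cortex markers and all 6 medulla markers were detected, meaning at 1 TPM (a level scaled by transcript length and library size) or more in both animals. Values are given for replicate 1 and then replicate 2 throughout. Summed levels were 6068 and 6684 TPM for cortex and 1836 and 2150 TPM for medulla. Markers of neighbouring organs differed between the animals. The summed level of the 10 kidney markers was 134 and 14.8 TPM, and that of the 6 exocrine pancreas markers 3323 and 0.51 TPM. The 6 liver markers reached 98.0 and 436 TPM in sum, and the 6 skeletal muscle markers 338 and 2110 TPM. In whole glands, fewer cells of a type and less RNA per cell cannot be told apart.

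Upstream DNA is shown for 4 genes because they pair the highest gene with an undetected gene of the same cluster, and a close pair of paralogues with each other. The RefSeq promoter table (build GRCm38.p6), which covers 250 bases before to 50 after a gene start, held 9 windows for 7 of the 9 genes, and Aldh1a3 and Rdh10 had no entry. Each sequence is printed 5′ to 3′ on the strand of its gene and stops at the first annotated exon of the gene within the window. For the downstream start of Adh1 (chr3:138277335-138277493, plus strand) no motif searched was found, so it has no capitals. For Adh4 (chr3:138415247-138415465, plus strand) capitals mark AGGTCA. A second AGGTCA of that window, at -11 to -6, is not shown because the printed stretch ends at -32. For the downstream start of Aldh1a1 (chr19:20601718-20601960, plus strand) and for Aldh1a7 (chr19:20727563-20727806, minus strand) capitals mark the longest run that the windows share, of 65 bases, from 94 to 30 bases before the start.
Adh1: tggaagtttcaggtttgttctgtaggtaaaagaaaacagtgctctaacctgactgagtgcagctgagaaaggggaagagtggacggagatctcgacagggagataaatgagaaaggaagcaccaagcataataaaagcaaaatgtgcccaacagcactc
Adh4: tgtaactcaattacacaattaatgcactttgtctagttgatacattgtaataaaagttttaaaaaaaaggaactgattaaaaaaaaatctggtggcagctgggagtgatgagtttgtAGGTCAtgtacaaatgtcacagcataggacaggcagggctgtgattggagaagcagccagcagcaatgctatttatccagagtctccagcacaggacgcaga
Aldh1a1: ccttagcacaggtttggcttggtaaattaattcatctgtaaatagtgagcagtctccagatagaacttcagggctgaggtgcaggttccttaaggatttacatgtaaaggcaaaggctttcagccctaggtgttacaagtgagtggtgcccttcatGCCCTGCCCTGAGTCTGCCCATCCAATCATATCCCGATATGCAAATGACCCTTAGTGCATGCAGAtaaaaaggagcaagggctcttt
Aldh1a7: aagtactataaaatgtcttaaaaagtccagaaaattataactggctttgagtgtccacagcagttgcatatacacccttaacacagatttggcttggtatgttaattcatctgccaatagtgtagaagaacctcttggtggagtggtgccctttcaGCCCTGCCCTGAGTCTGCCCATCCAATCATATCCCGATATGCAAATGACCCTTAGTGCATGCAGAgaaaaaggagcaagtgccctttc

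3 motifs were searched on both strands over the full windows of 300 bases. AGGTCA, a half-site bound by many nuclear receptors, stood in 16.3% of all 32851 promoters in the table, and AAGGTCA, which contains AGGTCA and resembles the core of the site that the adrenal factor Nr5a1 binds, in 4.72%. Among the 9 windows, only that of Adh4 held either of them: AGGTCA at -133 to -128 and AAGGTCA at -12 to -6 relative to the RefSeq start. TATAAA, the TATA box core, stood in 13.6% of all promoters and in 3 of the 9 windows. It lay at -202 to -197 in Adh7 (minus strand), -207 to -202 in Adh5 and -244 to -239 in Aldh1a7. The Adh5 window with the match starts at 138436950, upstream of the first annotated Adh5 exon at 138443093. These matches describe letters only. The windows of Aldh1a1 and Aldh1a7 were 80.1% identical over 282 aligned bases, and 125 of their last 130 bases (96.2%) were the same.

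Adh1 was the most abundant of the 9 genes. It lies on chromosome 3 (mm10, 138260991 to 138290698, plus strand; ENSMUSG00000074207.10) and stood at 1612 and 1738 TPM, a mean of 1675 ± 89.5 TPM (SD, n = 2). By mean TPM it ranked 3 among 22015 nuclear protein-coding genes, and 6 and 3 in the single animals. Its reads made up 0.207% of expected counts in replicate 1 (95% exact binomial interval 0.206% to 0.209%) and 0.224% in replicate 2 (0.223% to 0.226%), from 66027 and 73827 counts. Both glands thus held Adh1 at a level that few genes reached.

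Only 2 nuclear protein-coding genes ranked above it by mean TPM. Eef1a1, a translation elongation factor, stood at 2837 and 2848 TPM, and Hsd3b1, a steroid dehydrogenase of the adrenal cortex, at 2214 and 2570 TPM. The next 3 below were the globins Hba-a1 (1883 and 1331 TPM) and Hbb-bs (1721 and 1272 TPM), and Cyp21a1, the steroid 21-hydroxylase (1417 and 1517 TPM). Both globins stood above Adh1 in replicate 1 and below it in replicate 2.

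The remaining alcohol dehydrogenases stood far lower. Adh5 encodes the glutathione-dependent formaldehyde dehydrogenase found in most tissues, and it stood at 92.4 and 95.6 TPM (94.0 ± 2.32, SD, n = 2) from 4068 and 4351 counts. Adh7, known for its activity on retinol and its expression in the stomach and other epithelia, stood at 7.93 and 9.01 TPM from 642 and 760 counts. Of 6 stomach markers, 5 were listed at 0 in both animals, and Atp4a stood at 1.28 and 1.56 TPM. The tissue or cell type that the Adh7 reads came from was not tested. Adh4, an enzyme known from liver, had 3 and 5 counts (0.08 and 0.19 TPM). These are at or near the limit of 3 counts that a count of 0 allows. Alb stood at 60.3 and 269 TPM in the same libraries, and the source of the Adh4 counts was not tested. Adh1 was 17.5 times as high as Adh5 in replicate 1 and 18.2 times in replicate 2, and their values did not overlap. In a second quantification by the authors, described below, the folds were 9.30 and 9.43.

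**Figure D1:**
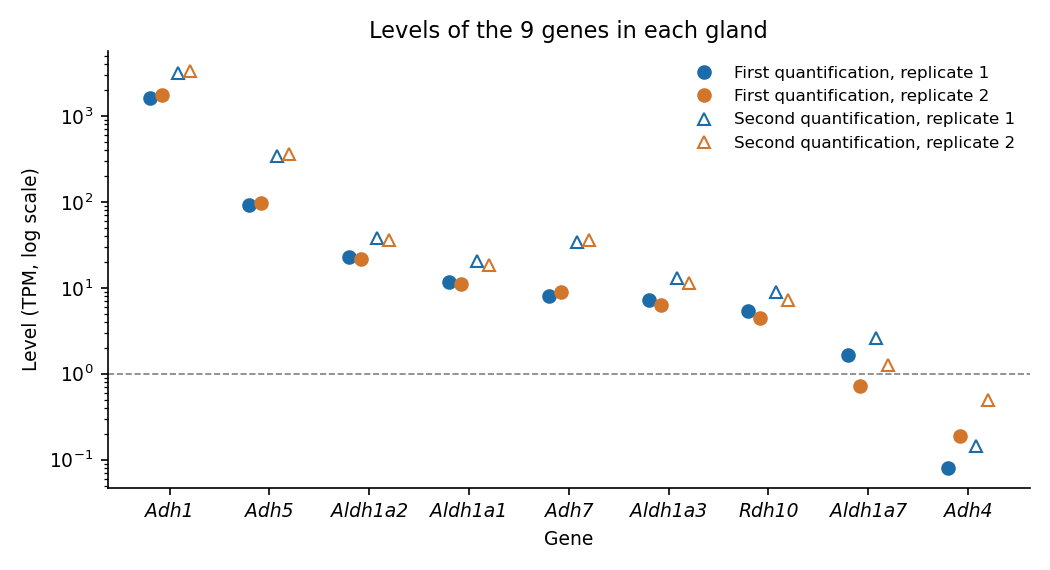
Levels of the 9 genes in TPM on a log axis, with 1 point per replicate; circles are the first quantification, triangles the second, and the dashed line is 1 TPM. Adh1 lies above 1600 TPM in every value, Adh5 next, and Adh4 lies below 1 TPM in every value.

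These genes stand in 1 cluster. From Adh7 to Adh5 it spans 238 kb of chromosome 3 and holds 6 protein-coding alcohol dehydrogenase genes on the plus strand, in the order Adh7, Adh1, Adh6a, Adh6b, Adh4 and Adh5. 3 of the 6 were detected, and the level changed from gene to gene along the chromosome: Adh6a, the next dehydrogenase gene after Adh1, had 0 and 1 counts, and Adh6b had 9 and 11. The pseudogene Adh6-ps1 had 0 and 2 counts. Adh1 made up 94.1% and 94.3% of the summed TPM of the 6 genes, Adh5 5.39% and 5.19%, and Adh7 0.463% and 0.489%. In the second quantification the shares were 89.4% and 89.5% for Adh1, 9.61% and 9.49% for Adh5, and 0.960% and 0.948% for Adh7. Genes on the opposite strand had few counts, 3 and 5 for 0610031O16Rik, which overlaps Adh7, and 0 and 0 for Gm16559, which overlaps Adh1. The small nuclear RNA gene Gm23467 also had 0 counts in both.

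**Figure D2:**
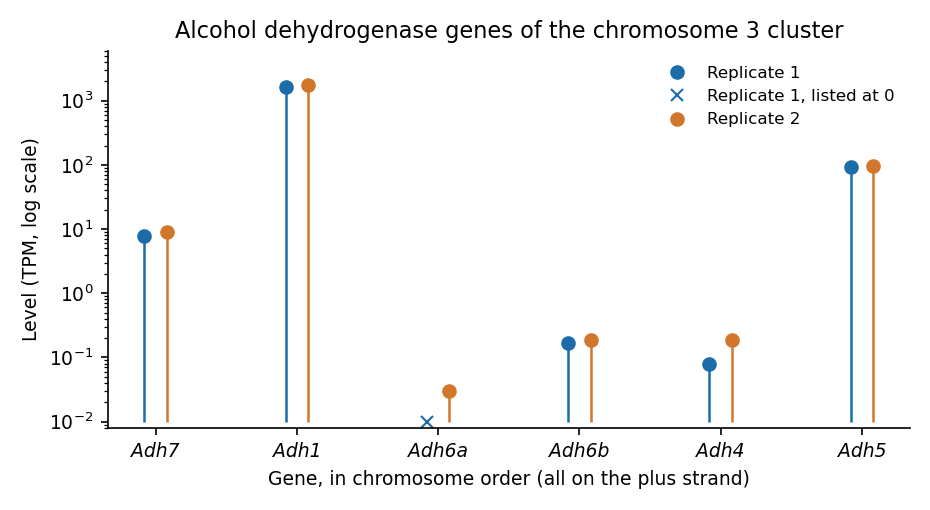
TPM on a log axis for the 6 protein-coding alcohol dehydrogenase genes in chromosome order, 1 point per replicate; lines run down to 0.01 TPM, the bottom of the axis, and a cross marks a gene listed at 0. Adh1 and Adh5 stand out, and Adh6a, Adh6b and Adh4, which lie between them, are all below 1 TPM.

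The 4 Aldh1a genes, which make retinoic acid or are close relatives of those that do, had summed levels of 43.2 and 39.7 TPM. Aldh1a2, the main retinoic acid synthase of the early embryo, led at 22.9 and 21.7 TPM and made up 52.9% and 54.6% of that sum. Aldh1a1, the cytosolic retinal dehydrogenase, followed at 11.6 and 11.0 TPM, and Aldh1a3, a retinal dehydrogenase of sensory and epithelial tissues, at 7.11 and 6.31 TPM. The values of these 3 genes did not overlap, so their order was the same in both glands. Rdh10, which supplies retinal to the Aldh1a enzymes in the embryo, stood at 5.40 and 4.47 TPM from 555 and 485 counts.

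Aldh1a7, a rodent paralogue of Aldh1a1, stood at 1.63 and 0.72 TPM, from 99 and 45 counts. The protein of 501 residues predicted from its coding sequence matched that of Aldh1a1 at 454 residues (90.6%), against 71.3% for Aldh1a2 and 67.5% for Aldh1a3. The genes face each other on chromosome 19, Aldh1a1 at 20492715 to 20643465 on the plus strand and Aldh1a7 at 20692953 to 20727562 on the minus strand, and the only gene annotated between their outer ends, the pseudogene Gm6684, had 0 counts. Aldh1a1 exceeded Aldh1a7 by 2.82 on the log2(TPM + 0.01) scale in replicate 1 and by 3.91 in replicate 2 (3.37 ± 0.77, SD, n = 2). Their levels were thus 7.09 and 15.0 times apart, and the stretch of 65 bases in capitals above is the same in both. Of the 2023 words of 31 bases in the leading Aldh1a1 transcript, 281 (13.9%) also occur in Aldh1a7.

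By protein, the alcohol dehydrogenases were less alike than Aldh1a1 and Aldh1a7. Adh1 (375 residues) was 67.6% identical to Adh7 (374 residues), 64.4% to Adh5 and 54.7% to Adh4. The leading Adh1 transcript shared 124 of its 1462 words with other genes: 80 with its antisense neighbour Gm16559, and the rest with Adh6-ps1 or Gm43158. The posterior SD that the authors' gene tables give for each count was 0 for all 9 genes in both animals, while it was above 0 for 6768 and 6708 of the 55536 genes.

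In the order of mean TPM, Adh1 was followed by Adh5, Aldh1a2, Aldh1a1, Adh7, Aldh1a3, Rdh10, Aldh1a7 and Adh4. No neighbours in that order overlapped, the closest in ratio being Adh7 (lowest value 7.93 TPM) over Aldh1a3 (highest value 7.11 TPM). 7 of the 9 genes, all protein coding, were detected, and Adh4 and Aldh1a7 were not. Of the 22015 nuclear protein-coding genes 13054 were detected, and of all 55536 genes 14669. In the second quantification, described next, Aldh1a7 stood at 2.60 and 1.26 TPM and passed as well. The 9 genes summed to 1761 and 1887 TPM, and without Adh1 to 148.96 and 148.99 TPM. The second quantification, a transcript table made separately by the authors and summed here to genes, gave higher TPM for all 9. There Adh1 stood at 3138 and 3363 TPM, in ranks 8 and 4, where the median ratio of the second to the first over 13054 protein-coding genes was 1.83 in replicate 1 and 1.80 in replicate 2. Adh5 (3.65 and 3.73) and Adh7 (4.25 and 3.95) lay at percentiles of that ratio between 99.2 and 99.6. In that table Adh7, at 33.7 and 35.6 TPM, stood above Aldh1a1 and overlapped Aldh1a2, at 38.4 and 35.6 TPM.

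The shares below are shares of a gene's summed TPM. Adh1-201, the protein-coding transcript, led in both tables with 86.2% and 86.9% in the first and 84.4% and 84.5% in the second. The tables differed on the remainder. The first gave 10.9% and 10.3% to Adh1-202, annotated as a target of nonsense-mediated decay, which the second listed at 0. The second gave 13.5% in both animals to Adh1-204, a processed transcript that starts 16.5 kb upstream of Adh1-201, to which the first gave 0.026% and 0.016%.

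Adh1-202 lacks the last 81 bases of the second exon and all 139 bases of the third exon of Adh1-201, and its annotated coding sequence is 132 bases long against 1125. The junctions that tell these transcripts apart are shown because the tables disagree on Adh1-202. Each line gives the 30 transcript bases before the junction and, in capitals, the 30 after it, from the M21 transcripts on the plus strand. The shortened second exon of Adh1-202 has 21 bases, so the first 9 bases of its line belong to the exon before. The exon ends joined lie at 138279832 and 138280374 in Adh1-201 and at 138279751 and 138282436 in Adh1-202.
Adh1-201: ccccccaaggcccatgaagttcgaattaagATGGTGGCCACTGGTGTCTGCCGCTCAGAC
Adh1-202: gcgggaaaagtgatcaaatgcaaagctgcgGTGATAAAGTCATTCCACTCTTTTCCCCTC

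For Adh5 and Adh7 the tables disagreed on the protein-coding share itself, and for Aldh1a1 on how it was split between transcripts. Adh5-201, the only Adh5 transcript annotated as protein coding, held 82.5% and 83.2% in the first table and 22.2% and 22.9% in the second. The second table gave 29.5% and 28.2% to Adh5-207 and 19.4% and 18.0% to Adh5-203, both annotated for nonsense-mediated decay. It gave 26.6% and 29.5% to Adh5-202, a retained intron. The first table gave 10.5% and 12.1% to Adh5-207 and under 5% to Adh5-203 and to Adh5-202. In TPM, Adh5-201 stood at 76.2 and 79.6 in the first table and 75.0 and 81.6 in the second. The TPM scales differ, with median ratios of the second to the first of 1.83 and 1.80, so like values are not like levels. In counts, Adh5-201 held 3531 and 3814 in the first table and 2026 and 2289 in the second.

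Adh7-201, of 3432 bases, held 76.3% and 76.6% in the first table and 31.3% and 33.3% in the second. There the retained intron Adh7-203, of 470 bases, led with 57.2% and 40.3%, although it held 8.17% and 5.42% of the estimated counts of the gene. In the first table Adh7-203 held 14.1% and 0%. Adh7-202, a processed transcript, held 9.60% and 23.4% in the first table and 11.5% and 26.4% in the second. Aldh1a1-201 held 97.8% and 95.3% in the first table and 56.1% and 49.1% in the second, which gave 37.4% and 46.7% to Aldh1a1-206, a protein-coding transcript that starts 109 kb upstream.

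The remaining genes were simpler. Aldh1a2 and Aldh1a7 have 1 annotated transcript each. Aldh1a3-201 held 85.4% and 87.7% in the first table, where Aldh1a3-203 held 8.72% and 8.70% and Aldh1a3-204 held 5.91% and 0%. Rdh10-201 held 90.9% and 95.1%, and the retained intron Rdh10-202 the rest. The few Adh4 counts fell on Adh4-201 in replicate 1 and on Adh4-201 and Adh4-202 in replicate 2.

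**Figure D3:**
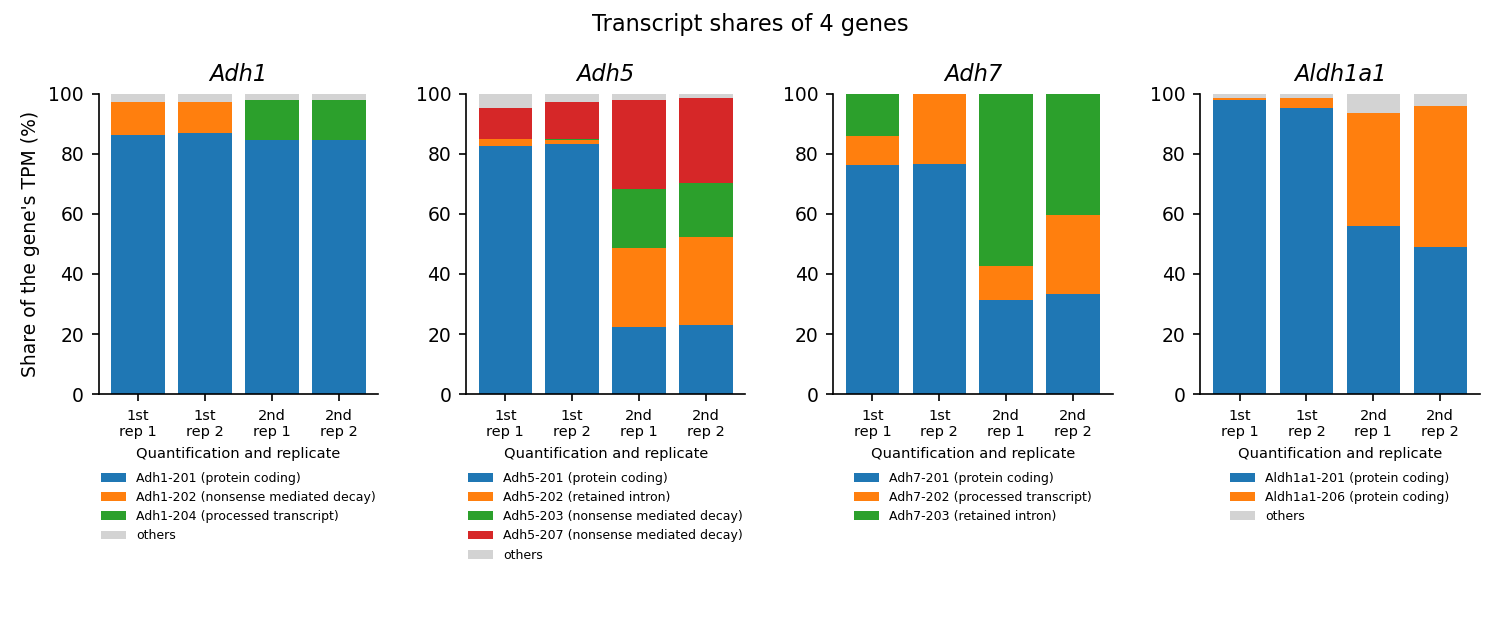
Stacked bars of the share of TPM held by each transcript of Adh1, Adh5, Adh7 and Aldh1a1, for the first (1st) and second (2nd) quantification and each replicate; transcripts under 5% in every bar are pooled as others. The protein-coding transcript leads in all 4 Adh1 bars, while in Adh5 and Adh7 its share is below 35% in the second table.

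The 2 animals were compared by the log2 ratio of replicate 2 over replicate 1, from expected counts with a prior of 0.5 counts. A gene was called when it differed 2-fold at a mean count of at least 100, a threshold on size with no significance test behind it. None of the 7 genes that reached that count was called, against 441 of 13734 genes (3.21%) over the whole table. Counting intervals (95%, exact) left out 0 for 4 of the 7, against 41.1% of all genes. Higher in replicate 2 were Adh1 at 0.16 (interval 0.14 to 0.17), Adh7 at 0.24 (0.09 to 0.39) and Adh5 at 0.09 (0.03 to 0.16). Lower in it was Rdh10 at -0.20 (-0.38 to -0.02). Scaled to the spike-ins instead, the ratio of Adh5 was 0.01, below its interval. The ratios of Aldh1a1 (-0.03), Aldh1a2 (-0.03) and Aldh1a3 (-0.11) had intervals that held 0. The median absolute ratio over all tested genes was 0.11, and 90% of genes lay within 0.37, a range that held all 7.

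Aldh1a7 was the exception in size but lay below the count limit, with a mean of 72 counts. It stood at -1.13 (interval -1.68 to -0.62), lower in replicate 2. Kidney markers were lower there too, and all 8 that reached the count limit were called (median -3.32). So were all 5 exocrine pancreas markers that reached it (median -13.8). Over all genes, 1.71% were called lower in replicate 2. Whether RNA of either tissue had a part in the difference of Aldh1a7 was not tested. Adh1 was higher in replicate 2, as were the liver markers, all 6 of which were called higher in it (1.50% of all genes were) at a median ratio of 2.19. All 7 adrenal cortex markers (median 0.14), all 6 medulla markers (0.27) and all 6 skeletal muscle markers (2.62) were also higher in replicate 2. Adh1 was 1.12 times as high there by these counts, and the part of these tissues in it was not tested.

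**Figure D4:**
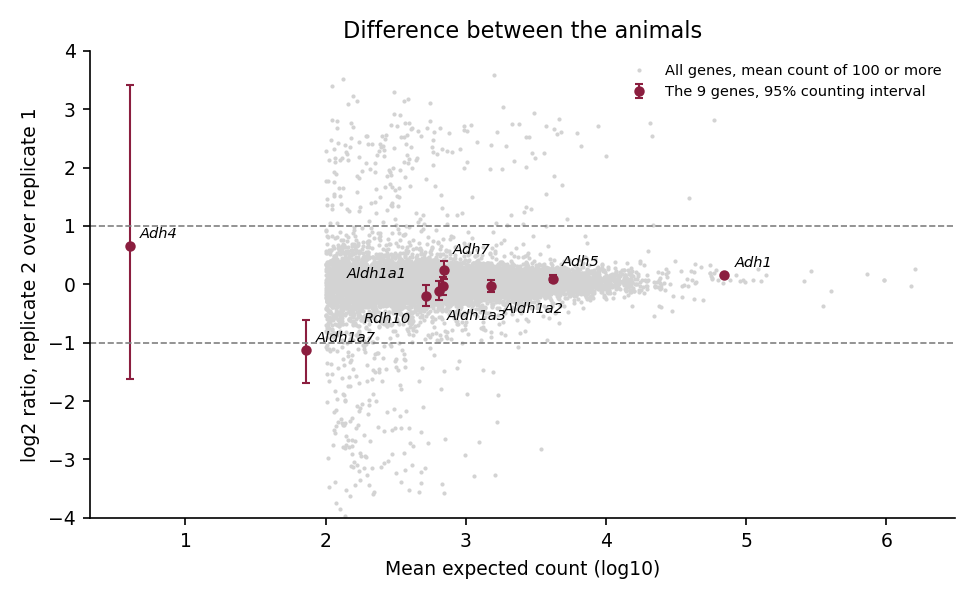
Log2 ratio of replicate 2 over replicate 1 against the mean expected count on a log10 axis, for all genes with a mean count of 100 or more (grey; 52 genes beyond 4 in size are not drawn) and the 9 genes (red, bars are 95% counting intervals); dashed lines mark 2-fold. Apart from Adh4 and Aldh1a7, which have few counts, the genes lie near 0.

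The rest of the pathway was read from 73 other genes in 8 lists. Of these, 45 were detected, against 13054 of the 22015 nuclear protein-coding genes and 14669 of all 55536 genes. For the rule of size, 43 had enough counts. 2 of the 43 were called, both higher in replicate 2 (206 of the 13734 genes tested, 1.50%, were called in that direction). These were Ttr (13.4 and 29.7 TPM) and Rbp4 (6.52 and 15.9 TPM), the carriers of retinol in blood, both known as liver products. The liver, skeletal muscle, medulla and cortex markers were also higher in replicate 2. What part any of these tissues had in the ratios of Ttr and Rbp4 was not tested. The median ratio over the 43 genes was 0.05, against 0.02 over all genes.

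Among enzymes that act on retinol and retinal, 7 of 17 were detected. Dhrs3, which reduces retinal back to retinol, led at 34.4 and 32.4 TPM, followed by Dhrs4 (29.6 and 29.9 TPM), Dhrs7 (28.5 and 30.6 TPM) and Rdh14 (13.1 and 13.8 TPM). Dhrs3 was 6.35 and 7.24 times as high as Rdh10 on the TPM + 0.01 scale. Rdh8, Sdr16c5 and Sdr16c6 were listed at 0 in both. Rdh19 had 143 and 7.65 counts and Rdh16 had 68.3 and 7.22, higher in replicate 1, while Rdh7 had 16.6 and 83.8 and Rdh9 had 2.13 and 29.5, higher in replicate 2. All 4 lay below the count limit. Their counts are not whole, and whether reads were split between these related genes was not tested.

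Adhfe1, an iron-dependent alcohol dehydrogenase of mitochondria, led the other alcohol dehydrogenases at 10.9 and 9.61 TPM. Of 16 other aldehyde dehydrogenases, 13 were detected. Aldh2, the mitochondrial enzyme that oxidises the acetaldehyde made by Adh1, led them at 306 and 316 TPM and stood at 0.190 and 0.182 times the level of Adh1. Next came Aldh3b1 (43.3 and 46.6 TPM), Aldh7a1 (39.2 and 41.2 TPM), Aldh6a1 (35.3 and 34.0 TPM) and Aldh16a1 (32.2 and 25.1 TPM). Aldh9a1, Aldh1l1, Aldh3a2, Aldh4a1 and Aldh18a1 stood between 13.2 and 26.6 TPM in every value. Of the 14 that were tested, none was called and 7 were higher in replicate 2.

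Retinol uptake and storage was uneven. 8 of 14 genes were detected, led by Lpl, a lipoprotein lipase, at 54.9 and 74.9 TPM, and Lipe, a hormone-sensitive lipase that also cleaves retinyl esters, at 49.8 and 53.4 TPM. Dgat1, which can esterify retinol, stood at 27.6 and 22.7 TPM, while Lrat, the main retinol-esterifying enzyme, had 4 and 11 counts.

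All 6 retinoic acid and retinoid X receptor genes were detected, with Rxrb (27.8 and 24.6 TPM), Rxra (20.8 and 20.2 TPM) and Rara (16.6 and 17.5 TPM) highest. Fabp5, a fatty acid binding protein that also carries retinoic acid, led the binding and breakdown genes at 39.0 and 47.5 TPM. Of the 3 Cyp26 genes only Cyp26b1 was detected, at 6.67 and 5.86 TPM, while Cyp26a1 had 7 and 4 counts and Cyp26c1 had 1 and 1.

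Of 13 genes often used as retinoic acid targets, 6 were detected. Rarres2, the adipokine chemerin, had the highest mean at 29.3 and 45.5 TPM, although Dhrs3 was higher in replicate 1, and next came Tgm2, a transglutaminase, at 20.8 and 27.9 TPM. Stra8 was listed at 0, and Hoxb1 had 2 and 1 counts.

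The 5 partners of Adh5 in formaldehyde and glutathione metabolism were all detected. Esd, which hydrolyses the product of Adh5, stood at 67.4 and 63.9 TPM, Gsr, the glutathione reductase, at 39.5 and 35.4 TPM, and Gclm, a subunit of the first enzyme of glutathione synthesis, at 26.6 and 26.2 TPM. Gclc, the other subunit, stood at 16.1 and 12.8 TPM and Gss, the glutathione synthetase, at 14.1 and 12.0 TPM. None was called, and all 5 ratios were below 0 with a median of -0.20. Each lay within the 0.37 that held 90% of all tested genes, as did that of Adh5 at 0.09. The interval of Esd (-0.14 to 0.04) held 0.

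**Figure D5:**
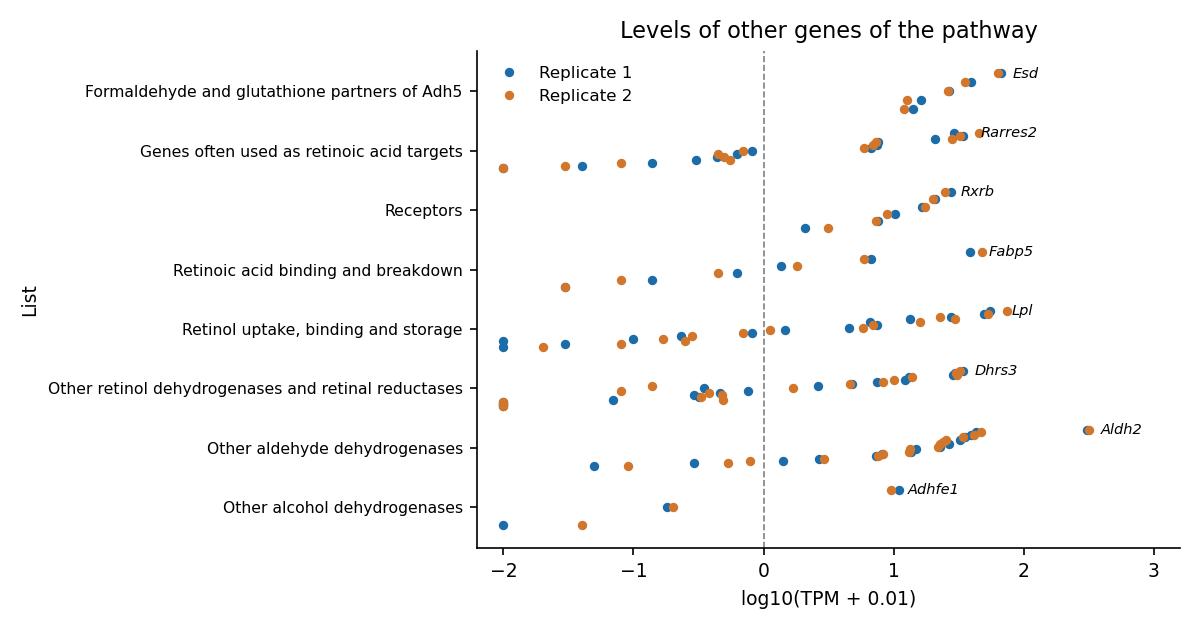
Level of each gene of the 8 lists as log10(TPM + 0.01), 1 point per replicate, with the highest gene of each list named and the dashed line at 1 TPM. Aldh2 lies furthest to the right of the genes shown, and points of the lists of partners and of receptors lie to the right of the line.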

How the data were processed

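Adrenal RNA of 2 animals was used. Per the file headers, the authors' gene tables gave expected counts, TPM, a posterior mean TPM and a posterior SD of the count per gene, and a companion transcript table gave the same measures per transcript. A second deposited transcript table gave estimated counts and TPM and was summed to genes. The authors' notes name mm10 and annotation M21. The aligner and the quantifier: not given in the sources used here. Reads of the hybrid strain were set against mm10, and the effect of that was not tested.

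Expected counts summed to 31838341 and 32931868, of which 0.900% and 0.923% were spike-ins. Levels are deposited TPM. Ratios used expected counts scaled by TMM in edgeR 4.0.16, with exact Clopper-Pearson intervals, which cover counting error only, as does the floor of 3 counts. Within-animal ratios used a pseudocount of 0.01 TPM. The size rule was run on simulated counts with counting error only, where changed genes lay well above both the 2-fold and the count limit. That run cannot show how the rule behaves near 2-fold or with variation between animals. Alternatives were DESeq2 1.42.0 size factors, library totals, spike-ins, other priors, filters and tables, and each animal alone. Sequences were aligned with Biopython 1.88.

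The genes and lists were chosen with earlier results of these data known. Named were all 9 genes, list genes at 10 TPM or more in both animals and the highest of each list, genes ranked next to Adh1, cluster genes, and transcripts at 5% or more. Other list genes given with values (Rbp4, Lrat, Cyp26a1, Cyp26b1, Cyp26c1, Rdh7, Rdh8, Rdh9, Rdh16, Rdh19, Sdr16c5, Sdr16c6, Stra8 and Hoxb1) were picked after their values were seen.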

Additional observations from a re-analysis of the deposited data

How the results depend on the processing

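Apart from each animal alone, which with 2 animals lies within 1 SD of the mean by construction, 99 values were recomputed for 30 results. Of these, 69 stayed within the spread or interval of the value given, or, for counts, within 1.5 times it, and 30 moved beyond it. A reversal was looked for only in the log2 ratio of Aldh1a1 over Aldh1a7, which kept its sign. Between the animals, the ratio of Aldh1a1 changed sign within its interval, from -0.03 to 0.01 in the second quantification. By mean share, Adh5 and Adh7 each had another leading transcript in the second table. The second quantification gave a mean of 3250 TPM for Adh1 and 3711 TPM for the sum of the 9 genes. In the second transcript table the mean share was 84.4% for Adh1-201, 22.6% for Adh5-201, 32.3% for Adh7-201 and 52.6% for Aldh1a1-201. As shares of counts, Adh1-201 held 90.5%, Adh5-201 87.2% and Adh7-201 96.5%. At a threshold of 10 TPM, 4 genes were detected. With a mean count of at least 20, 1 of the 9 genes (Aldh1a7) and 993 of all genes differed 2-fold, and with no filter 1 and 7170, since more genes with few counts enter. With a pseudocount of 1 TPM the log2 ratio of Aldh1a1 over Aldh1a7 was 2.53. Each animal alone gave 1612 to 1738 TPM for Adh1 and 2.82 to 3.91 for that log2 ratio. The ratio of Adh1 between the animals ranged from 0.08 (spike-in scaling) to 0.18 (second table). That of Adh5 ranged from 0.01 (spike-in scaling) to 0.14 (second table), and that of Aldh1a1 from -0.11 to 0.01. The DESeq2 size factors were 1 in both libraries. No paired analysis was possible because the samples form 1 group. The cause of these shifts was not tested. Depth limits Adh4 and Aldh1a7, which had at most 99 counts.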
